A study of Mus musculus with 15 samples.

Results

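Cathepsins and legumain are the proteases of the lysosome, the acidic compartment in which cells break down proteins taken up from outside or delivered by autophagy. The 10 genes described here, Ctsa, Ctsb, Ctsc, Ctsd, Ctsh, Ctsk, Ctsl, Ctss, Ctsz and Lgmn, were chosen by name from 22180 genes measured in mouse lung nodules. All 10 were measured, each by 1 transcript cluster of the array. The nodules were cut by laser from stained, formalin-fixed and paraffin-embedded lungs of female BALB/c mice that had received mouse mammary cancer cells through the tail vein, and each nodule was hybridized to 1 array. The cells were either the metastatic line D2.A1 or the line D2.OR, which enters dormancy in the lung, and the methods describe the inoculated cells as carrying luciferase. The labels name no other engineered allele and no drug.

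The 15 nodules form 6 groups. D2.A1 3D spindle and D2.A1 3D epithelial have 2 nodules each, from cells primed in culture on reconstituted basement membrane extract before injection. D2.A1 2D spindle and D2.A1 2D epithelial have 3 nodules each, from unprimed cells grown on tissue culture plates. D2.OR 3D has 3 nodules of primed cells, and D2.OR 2D has 2 nodules of unprimed cells, which the labels number 2 and 3. All D2.OR nodules are labelled spindle, so the contrast of the lines compares D2.OR spindle nodules with D2.A1 nodules of both morphologies. The mice were 4 to 5 weeks old at inoculation.

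Most cathepsins are cysteine proteases made as inactive precursors, sorted to the lysosome by mannose 6-phosphate receptors and activated by acid and by each other. Cathepsin D is an aspartic protease and cathepsin A a serine carboxypeptidase. Legumain cuts after asparagine and trims several cathepsins to their mature chains. Macrophages and dendritic cells hold large amounts of these enzymes, fibroblasts and osteoclasts use cathepsin K against collagen, and tumor cells can release cathepsins B and L to cleave matrix outside the cell.

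The deposited values are signals on the log2 scale, normalized across arrays, so a difference of 1 is a 2-fold change of signal. Group means were compared with limma in a single fit of all 15 arrays, with the p-value of each comparison adjusted by Benjamini-Hochberg over the 22180 genes, and a gene rose or fell where its adjusted p was under 0.05. The number of arrays limits the precision, and the files carry no detection calls. The D2.A1 nodules outnumber the mice of their groups in the study's design and the labels do not say which mouse gave which nodule, so some of them come from one mouse and p-values over nodules are too small. In nodules that mix tumor cells with other cells, fewer cells of a type and less RNA per cell cannot be told apart. A pair of D2.OR nodules stood apart. D2.OR 3D nodule 2 had a mean of 4.96 over 6 heart and skeletal muscle genes, against 2.60 and 3.08 in the other D2.OR 3D nodules and 2.05 to 2.25 in D2.A1 nodules, and D2.OR 2D nodule 2 had a mean of 7.12 over 8 fat cell genes, against 3.93 in the other D2.OR 2D nodule and 1.71 to 2.00 in D2.A1 nodules. The difference of Ctsl between the lines is given with and without each of them. For the other members, calls are given with and without D2.OR 3D nodule 2 only.

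Lysosomal genes are known as targets of TFEB and its relatives, transcription factors that bind the E-box CACGTG and prefer its longer form TCACGTGA. RefSeq start sites on GRCm38.p6 gave promoter windows, from 250 bases before to 50 bases after the start, for 8 of the 10 genes, with 10 windows in all. Ctsb and Ctsh are named only. CACGTG, which reads the same on both strands and lies inside TCACGTGA, stood in a window of 4 genes, Ctsa, Ctsd, Ctsl and Lgmn, and 7.15% of all 32851 promoter windows hold it. TCACGTGA stood in windows of 2 genes, Ctsa and Ctsd, and 0.974% of all windows hold it. A match is a stretch of letters and not a binding site. The 3 windows are shown to let the promoter of Ctsl, the gene that differed between the lines, be read beside those of the genes with the longer motif. They lie at chr13:64370471-64370770 on the minus strand (Ctsl), chr2:164833523-164833822 on the plus strand (Ctsa) and chr7:142387778-142388077 on the minus strand (Ctsd), with CACGTG or TCACGTGA in capitals.
Ctsl: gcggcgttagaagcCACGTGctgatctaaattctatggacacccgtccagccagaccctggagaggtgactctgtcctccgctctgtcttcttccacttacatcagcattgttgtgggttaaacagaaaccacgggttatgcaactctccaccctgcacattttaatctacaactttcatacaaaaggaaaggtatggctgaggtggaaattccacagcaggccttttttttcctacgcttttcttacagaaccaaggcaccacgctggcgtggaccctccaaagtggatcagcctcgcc
Ctsa: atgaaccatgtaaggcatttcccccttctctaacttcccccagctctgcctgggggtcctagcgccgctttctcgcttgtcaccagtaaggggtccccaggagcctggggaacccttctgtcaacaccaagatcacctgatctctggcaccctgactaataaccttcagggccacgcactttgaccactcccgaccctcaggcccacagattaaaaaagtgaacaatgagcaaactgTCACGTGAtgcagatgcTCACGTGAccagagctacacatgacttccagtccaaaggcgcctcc
Ctsd: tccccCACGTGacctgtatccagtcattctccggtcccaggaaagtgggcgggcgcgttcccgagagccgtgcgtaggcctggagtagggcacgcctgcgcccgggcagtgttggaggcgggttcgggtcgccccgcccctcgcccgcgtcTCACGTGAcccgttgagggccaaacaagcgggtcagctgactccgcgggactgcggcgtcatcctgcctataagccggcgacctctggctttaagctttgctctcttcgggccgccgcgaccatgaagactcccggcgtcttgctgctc
The window of Ctsl holds a single CACGTG, 236 bases before the start. That of Ctsa holds 2 copies of TCACGTGA, 1 beginning 13 bases before the start and 1 just after it. That of Ctsd holds TCACGTGA beginning 99 bases and a further CACGTG 245 bases before the start.

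Ctsl was the member that differed between the lines. Cathepsin L is an endopeptidase of the lysosome that also cleaves matrix proteins once secreted. Its signal was 5.96 and 6.57 in D2.A1 3D spindle nodules, 5.92 and 6.39 in D2.A1 3D epithelial, 6.25, 5.65 and 5.43 in D2.A1 2D spindle, and 6.39, 5.80 and 5.87 in D2.A1 2D epithelial nodules, against 4.60, 4.25 and 4.81 in D2.OR 3D and 4.20 and 5.43 in D2.OR 2D nodules. Every D2.A1 nodule was above every D2.OR nodule, but the margin was narrow, because the lowest D2.A1 nodule lay only 0.0042 above the highest, D2.OR 2D nodule 3. The mean was 6.02 ± 0.36 in D2.A1 (SD, n = 10) and 4.66 ± 0.50 in D2.OR (SD, n = 5). Averaged over the groups of each line, Ctsl was 1.37 higher in D2.A1 than in D2.OR (standard error 0.22, 2.58-fold, adjusted p = 0.00342 from limma). Of all genes tested, 1.52% were called higher and 3.67% lower in this contrast, and 0.523% lay wholly above D2.OR in D2.A1.

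The nodules that stood apart held the lowest Ctsl signals, 4.20 in D2.OR 2D nodule 2 and 4.25 in D2.OR 3D nodule 2. The difference in Ctsl was 1.06 without D2.OR 2D nodule 2, which leaves that group with a lone nodule. It was 1.29 without D2.OR 3D nodule 2 (adjusted p = 0.00546 from limma). These nodules were not left out together, so how far the difference rests on both cannot be told. Fat cell and B cell genes moved with the lines, in the direction opposite to Ctsl. The fat cell mean was 1.71 to 2.00 in D2.A1, against 3.98, 4.21 and 2.66 in D2.OR 3D and 7.12 and 3.93 in D2.OR 2D nodules, and all 8 fat cell genes had a lower median in D2.A1 than in D2.OR. In the contrast of the lines 6 of the 8 fell. The mean of 4 B cell genes was 1.83 to 2.12 in D2.A1 and 2.94 to 4.80 in D2.OR nodules, and all 4 fell, as did 4 of 4 T cell genes and 3 of 7 endothelial genes. Over all 15 nodules, where the lines differ in both measures, the correlation of Ctsl was -0.80 with the fat cell mean and -0.73 with the B cell mean. Within the 10 D2.A1 nodules, where the lines play no part, it was 0.53 and -0.15. There both means lay near the median signal of the arrays, 1.81 to 1.91, so these 10 nodules cannot show the part of such cells. The part of these cells in the Ctsl difference was not tested. The mean of 13 macrophage genes overlapped between the lines, with 3.15 to 3.85 in D2.A1 and 3.01 to 4.26 in D2.OR.

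Split by culture, the difference kept its direction but not always its call. Between primed nodules, the D2.A1 3D mean of Ctsl was 1.66 above that of D2.OR 3D (standard error 0.30, 3.15-fold, adjusted p = 0.0359), where 0.194% of genes were called higher and 0.252% lower. That call was lost in 6 of 11 alternative analyses (adjusted p up to 0.309) and on leaving out any of 9 single nodules (adjusted p up to 0.135), although the difference stayed between 1.502 and 1.81. Without D2.OR 3D nodule 2 it passed (1.503, adjusted p = 0.0398). Between unprimed nodules it was 1.08 (standard error 0.32, adjusted p = 0.0855), which did not pass, against 0.996% of genes called higher and 3.2% lower. With D2.OR 2D at 2 nodules, the value turned on which of them was kept. It was 1.69 without nodule 3 (adjusted p = 0.0123) and 0.47 without nodule 2 (adjusted p = 0.665), where the lone D2.OR 2D nodule is assumed to vary like the other groups. Priming moved Ctsl by 0.57 more in D2.A1 than in D2.OR, which did not pass (standard error 0.44, adjusted p = 0.793).

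**Figure D1:**
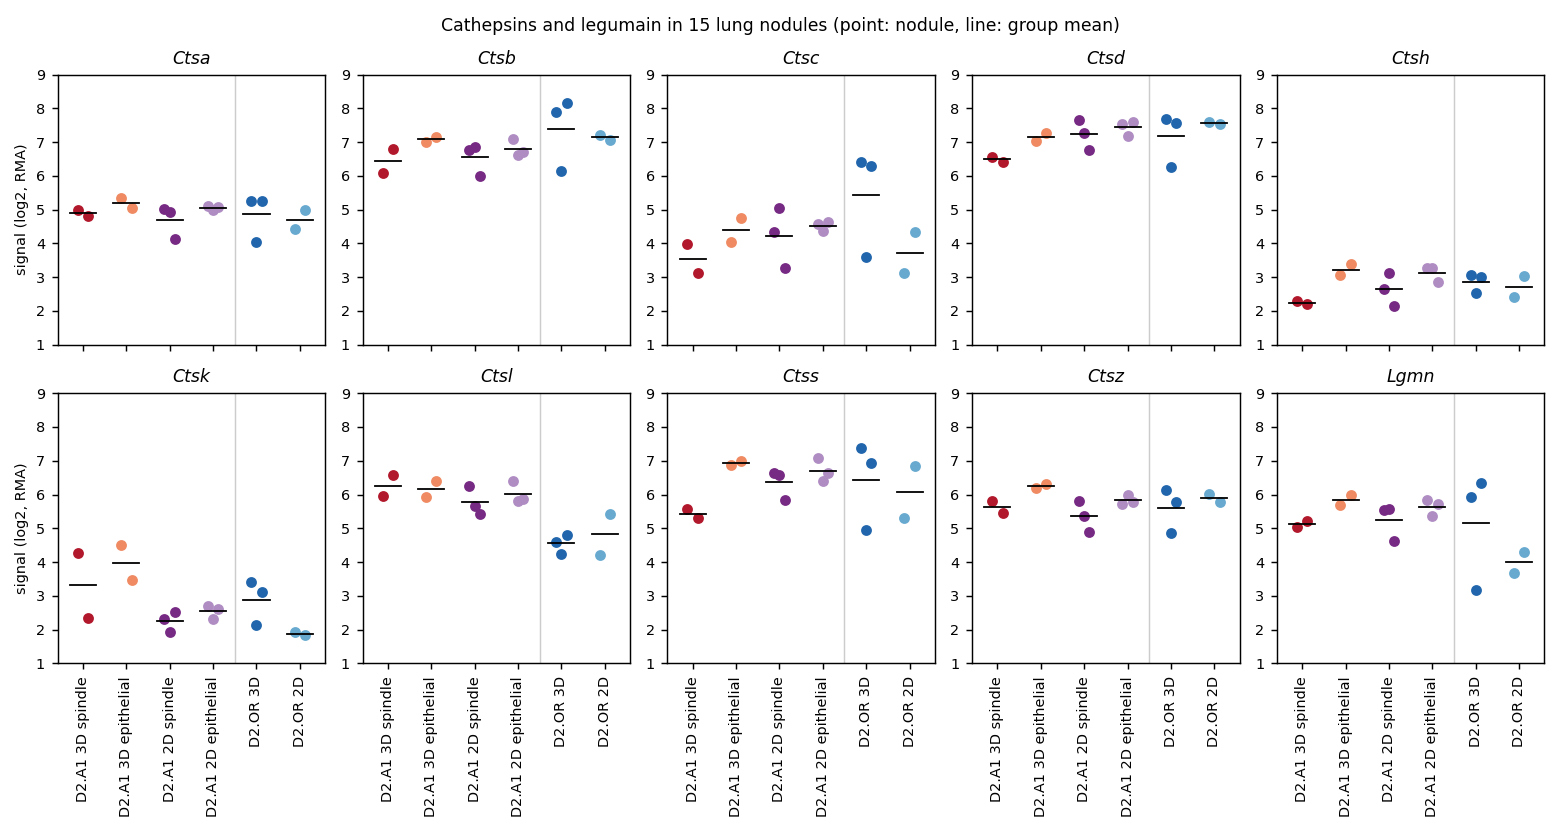
Signal (log2, RMA) of each of the 10 genes in 15 lung nodules, with 1 point per nodule, a line at each group mean and D2.A1 groups left of D2.OR groups. In Ctsl all D2.A1 points lie at 5.43 or above and all D2.OR points at 5.43 or below, while the other 9 genes overlap between the lines.

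The other endopeptidases overlapped between the lines. Ctss, cathepsin S, digests the invariant chain that blocks MHC class II molecules in antigen-presenting cells. Its signal was 5.56 and 5.30 in D2.A1 3D spindle, 6.89 and 6.98 in D2.A1 3D epithelial, 6.65, 6.59 and 5.83 in D2.A1 2D spindle, and 7.08, 6.41 and 6.64 in D2.A1 2D epithelial nodules, against 7.38, 4.96 and 6.95 in D2.OR 3D and 5.31 and 6.85 in D2.OR 2D nodules. The highest and the lowest of the 15 nodules both belonged to D2.OR 3D. The difference between the lines was 0.10 (standard error 0.37), with a 95% confidence interval of -0.70 to 0.91 that leaves room for a change of either sign.

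Ctsk, cathepsin K, degrades collagen. Its signal was 4.27 and 2.36 in D2.A1 3D spindle, 4.51 and 3.46 in D2.A1 3D epithelial, 2.32, 1.94 and 2.53 in D2.A1 2D spindle, and 2.69, 2.32 and 2.62 in D2.A1 2D epithelial nodules, against 3.42, 2.13 and 3.12 in D2.OR 3D and 1.92 and 1.84 in D2.OR 2D nodules. The high values were those of primed cells, though 1 of the 4 D2.A1 3D nodules, at 2.36, and 1 of the 3 D2.OR 3D nodules, at 2.13, lay among those of unprimed cells.

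Ctsd, cathepsin D, is the main aspartic protease of the lysosome. Its signal was 6.57 and 6.42 in D2.A1 3D spindle, 7.04 and 7.28 in D2.A1 3D epithelial, 7.66, 7.28 and 6.76 in D2.A1 2D spindle, and 7.55, 7.19 and 7.60 in D2.A1 2D epithelial nodules, against 7.69, 6.25 and 7.57 in D2.OR 3D and 7.60 and 7.53 in D2.OR 2D nodules. Apart from D2.OR 3D nodule 2, which was the lowest of all 15, the D2.OR nodules sat at the top of the D2.A1 range.

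Ctsb, cathepsin B, is both an endopeptidase and a dipeptidyl carboxypeptidase. Its signal was 6.08 and 6.80 in D2.A1 3D spindle, 7.01 and 7.15 in D2.A1 3D epithelial, 6.78, 6.86 and 6.002 in D2.A1 2D spindle, and 7.09, 6.61 and 6.71 in D2.A1 2D epithelial nodules, against 7.89, 6.15 and 8.16 in D2.OR 3D and 7.22 and 7.07 in D2.OR 2D nodules. D2.OR 3D nodules 1 and 3 were the highest of all, above every D2.A1 nodule, and D2.OR 3D nodule 2 was lower than all but 2 D2.A1 nodules.

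Ctsc, cathepsin C or dipeptidyl peptidase I, activates the serine proteases of immune cell granules. Its signal was 3.97 and 3.12 in D2.A1 3D spindle, 4.05 and 4.74 in D2.A1 3D epithelial, 4.35, 5.06 and 3.27 in D2.A1 2D spindle, and 4.57, 4.37 and 4.64 in D2.A1 2D epithelial nodules, against 6.41, 3.60 and 6.29 in D2.OR 3D and 3.11 and 4.33 in D2.OR 2D nodules. It had the widest range of the 10 genes, 3.30, where the median gene of the array ranged over 0.717. The same D2.OR 3D nodules 1 and 3 were far above the rest, and the other 13 nodules lay between 3.11 and 5.06.

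Lgmn, legumain, was low in 3 D2.OR nodules. Its signal was 5.03 and 5.21 in D2.A1 3D spindle, 5.69 and 5.998 in D2.A1 3D epithelial, 5.54, 5.57 and 4.62 in D2.A1 2D spindle, and 5.85, 5.35 and 5.72 in D2.A1 2D epithelial nodules, against 5.91, 3.18 and 6.35 in D2.OR 3D and 3.68 and 4.29 in D2.OR 2D nodules. Both D2.OR 2D nodules lay below every D2.A1 nodule, whereas D2.OR 3D spanned the whole range of the 15 nodules.

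The remaining exopeptidases varied less. Ctsh, an aminopeptidase that helps to mature surfactant protein B in alveolar type II cells, lay between 2.14 and 3.38 in D2.A1 and between 2.42 and 3.07 in D2.OR. Ctsz, a carboxypeptidase, lay between 4.90 and 6.32 in D2.A1 and between 4.87 and 6.15 in D2.OR. Ctsa, which also protects beta-galactosidase and neuraminidase in the lysosome, lay between 4.14 and 5.35 in D2.A1 and between 4.05 and 5.27 in D2.OR. For all 3 genes the lines overlapped almost completely, and the differences between the lines were 0.01, 0.02 and 0.18, in that order.

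Ctsl was the 1 member of 10 that passed in the contrast of the lines, and the 10 differences ran between -0.55 for Ctsb and 1.37 for Ctsl. Their median was 0.06, beside a median of 0.02 over all genes, with 7 members above 0 and 3 below. Lgmn was 0.90 higher (standard error 0.42, adjusted p = 0.294) and Ctsk 0.64 higher (standard error 0.31, adjusted p = 0.299) in D2.A1 without passing. The comparison of primed nodules gave differences between -1.46 for Ctsc and 1.66 for Ctsl, with a median of 0.02 over the members (-0.48 without D2.OR 3D nodule 2) and 0.00227 over all genes. In that comparison 1 member, Ctsl, lay wholly above D2.OR 3D in the D2.A1 3D nodules, as did 3.78% of all genes.

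In the comparison of unprimed nodules 0 members passed in limma, 2 had an unadjusted p under 0.05 (Ctsl and Lgmn), and 0 passed in the one-way test. The members' median difference was 0.31, beside 0.03 over all genes. Lgmn was 1.46 higher in D2.A1 2D (standard error 0.62, adjusted p = 0.263). It did pass when the groups compared were fitted alone (standard error 0.29, adjusted p = 0.0361) and also on leaving out nodule 2 of D2.OR 3D (standard error 0.26 and adjusted p = 0.00608). Calls over all genes were 717 and 1315 in these settings, against 931 in the main fit. Ctsk, Ctsl and Lgmn lay wholly above D2.OR 2D in the 6 D2.A1 2D nodules, as did 8.91% of all genes.

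**Figure D2:**
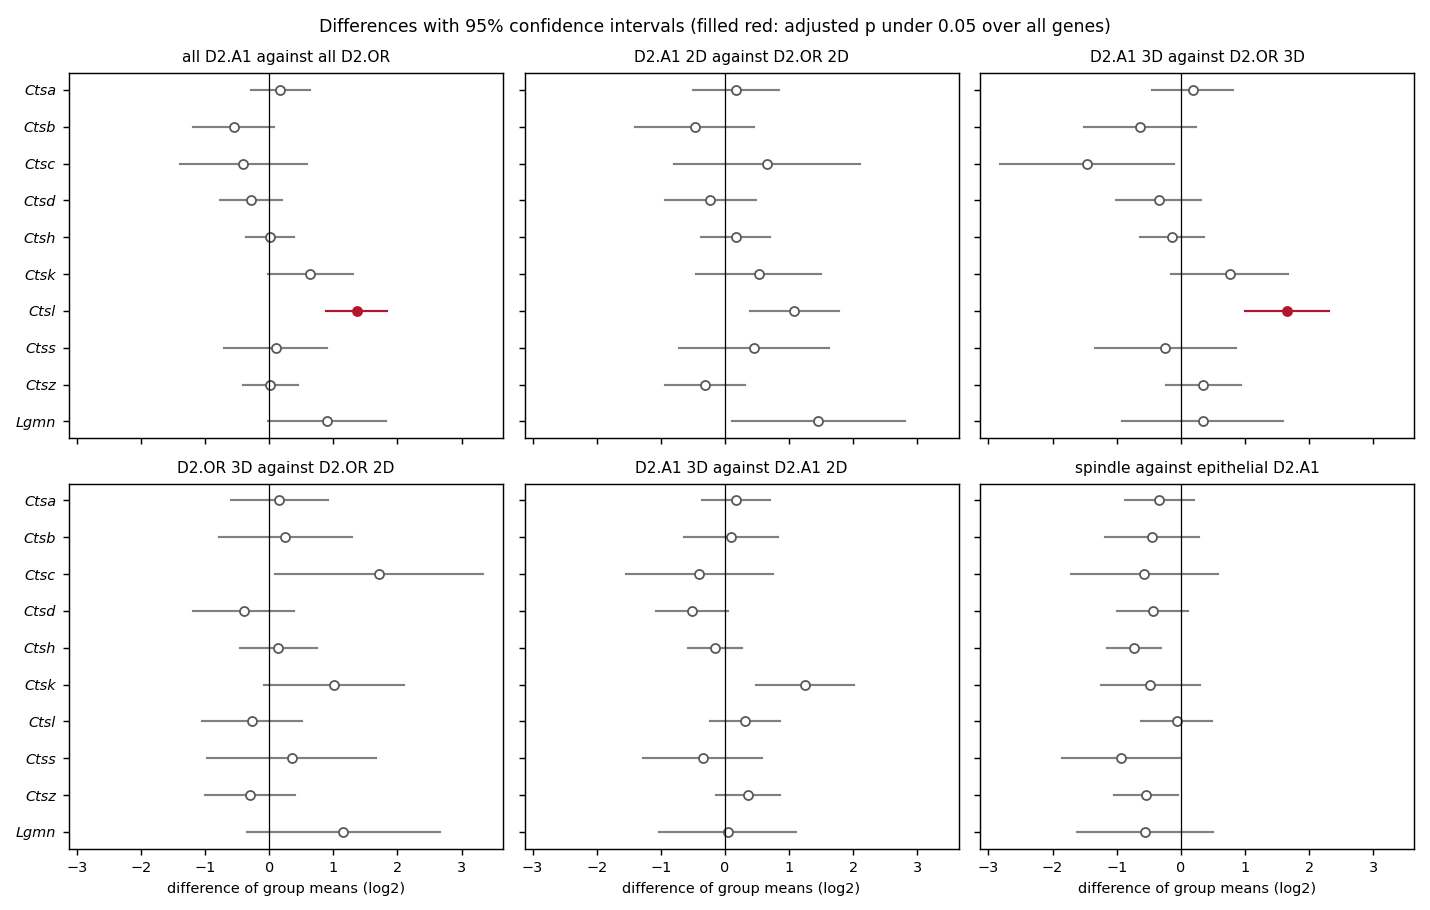
Difference of group means (log2) of the 10 genes in 6 comparisons, with 95% confidence intervals from limma, filled red where the adjusted p over all genes was under 0.05. Ctsl is filled in the contrasts of all D2.A1 with all D2.OR nodules (1.37) and of D2.A1 3D with D2.OR 3D nodules (1.66), and no other gene is filled in any panel.

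D2.OR 3D nodule 2 weighed on the other members. It was the lowest of the 15 arrays in 5 of the 10 genes, and array weights gave it 0.325 where D2.OR 3D nodule 1 had 3.11. Without it Ctsb fell by 0.87 (adjusted p = 0.0101 from limma) and Ctsd fell by 0.52 (adjusted p = 0.0459) in all D2.A1 against all D2.OR nodules. Between primed nodules Ctsb then fell by 1.26 (adjusted p = 0.024) and Ctsc fell by 2.38 (adjusted p = 0.0165) in D2.A1 3D relative to D2.OR 3D. With it, the differences were -0.55 for Ctsb and -0.29 for Ctsd between the lines, and -0.64 for Ctsb and -1.46 for Ctsc between primed nodules, and none passed. Leaving that nodule out also moved the calls over all genes, from 1152 to 1747 between the lines and from 99 to 526 between primed nodules. The part of the heart and skeletal muscle RNA in the low values of that nodule was not tested.

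The next question was whether priming in 3D culture before injection left a mark on these genes. In D2.OR 3D against D2.OR 2D nodules 0 members passed in limma, 1 had an unadjusted p under 0.05 and 0 passed in the one-way test, and 0.275% of all genes were called in either direction. The members' differences ran between -0.39 for Ctsd and 1.71 for Ctsc, with a median of 0.20 beside 0.01 over all genes. Ctsc was 1.71 higher in D2.OR 3D (standard error 0.75, adjusted p = 0.493), Lgmn 1.16 (standard error 0.69, adjusted p = 0.707) and Ctsk 1.01 higher (standard error 0.50, adjusted p = 0.584). Ctsk was the 1 member without overlap between these groups. It lay wholly higher in D2.OR 3D, as did 10.7% of all genes. Without D2.OR 3D nodule 2 Ctsc rose by 2.63 (adjusted p = 0.0209) and Lgmn rose by 2.14 (adjusted p = 0.0038). Calls over all genes grew in that setting too, from 61 to 469.

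Marker genes of several cell types moved with the same nodules, and some moved the other way. The mean of 13 macrophage genes was 4.26, 3.28 and 4.08 in D2.OR 3D nodules, against 3.01 and 3.66 in D2.OR 2D nodules, and that of 8 alveolar type II genes was 5.08, 3.97 and 5.50, against 2.47 and 2.30. Sftpb, the surfactant protein that cathepsin H helps to mature, rose by 4.49 in D2.OR 3D nodules over the unprimed ones (standard error 0.61, adjusted p = 0.0147), while Ctsh differed by 0.14 (standard error 0.28). The mean of 9 fibroblast genes was 5.71, 3.67 and 6.51 in D2.OR 3D, against 3.74 and 3.77 in D2.OR 2D nodules. That of 5 epithelial genes was 3.98, 2.82 and 4.07, against 2.58 and 2.54. T cell, fat cell, endothelial and B cell genes went the other way, with median differences of -1.68, -1.95, -0.59 and -0.51. Among them Cd3d, Pecam1 and Egfl7 fell. Whether the epithelial and fibroblast signals came from the tumor cells or from other cells cannot be told here. The part of all these cells in the cathepsin differences was not tested.

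In D2.A1 3D against D2.A1 2D nodules 0 members passed in limma, 1 had an unadjusted p under 0.05 and 0 passed in the one-way test, and 0.00451% of genes were called. The differences ran between -0.51 for Ctsd and 1.24 for Ctsk, with a median of 0.06 beside a median of 0.00011 over all genes. Ctsk was 1.24 higher in D2.A1 3D (standard error 0.35, unadjusted p = 0.00406 and adjusted p = 0.683 in limma), beside 1.01 for the same gene in D2.OR. Ctsl was 0.31 higher (standard error 0.25). The mean of 9 fibroblast genes was 4.20, 3.76, 4.08 and 4.31 in D2.A1 3D nodules, against 3.38 to 3.88 in D2.A1 2D nodules, and its correlation with Ctsk over the 10 D2.A1 nodules was 0.70. Its part in the Ctsk difference was not tested.

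A test of whether priming acted differently in the lines called 0 of the 10 members in limma, with 1 at an unadjusted p under 0.05, beside 0.0947% of all genes. The largest difference was that of Ctsc, whose priming effect was 2.12 lower in D2.A1 than in D2.OR (standard error 0.91, adjusted p = 0.574). On leaving out nodule 2 of D2.OR 3D this difference was -3.03 (adjusted p = 0.0372), and that of Lgmn was -2.10 (adjusted p = 0.0187). Calls over all genes grew there from 21 to 268.

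Morphology was compared within D2.A1. The study places spindle nodules at the pleural surface and epithelial nodules inside the lung. In spindle against epithelial nodules 0 members passed in limma, 2 had an unadjusted p under 0.05 and 0 passed in the one-way test, and 0% of genes were called. Some mice may have given nodules to both sides, and then p-values can also be too large. All 10 members were lower in spindle nodules, between -0.93 for Ctss and -0.06 for Ctsl, with a median of -0.51. Lower signals in spindle nodules were common among probes as bright as those of the members. Of 3885 genes with a mean signal at or above the lowest mean of a member, a cut on brightness and not on RNA level, 79.6% were lower too, with a median of -0.18, against 54.5% of all genes.

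Ctsh had the smallest p of the members in that comparison. Its signal was 2.29 and 2.20 in D2.A1 3D spindle against 3.06 and 3.38 in D2.A1 3D epithelial nodules, and 2.66, 3.12 and 2.14 in D2.A1 2D spindle against 3.28, 3.27 and 2.84 in D2.A1 2D epithelial nodules. The primed groups did not overlap, and the unprimed groups did. The difference was -0.73 (standard error 0.20, unadjusted p = 0.00264 and adjusted p = 0.315 in limma). Ctsz differed by -0.54 (standard error 0.23, adjusted p = 0.601). The mean of the 13 macrophage genes was 3.15 and 3.29 in D2.A1 3D spindle against 3.63 and 3.65 in D2.A1 3D epithelial nodules, and 3.62, 3.64 and 3.23 in D2.A1 2D spindle against 3.85, 3.65 and 3.63 in D2.A1 2D epithelial nodules. The mean of 5 epithelial genes was 2.99 and 3.03 in D2.A1 3D spindle against 3.39 and 3.75 in D2.A1 3D epithelial nodules, and 3.25, 3.69 and 2.61 in D2.A1 2D spindle against 3.47, 3.96 and 3.43 in D2.A1 2D epithelial nodules. All 5 were lower in spindle nodules (median difference -0.54), as were all 8 alveolar type II genes (-0.43) and all 7 endothelial genes (-0.25), and 11 of the 13 macrophage genes (-0.36), and 0 of these passed in limma. Over the 10 D2.A1 nodules the correlation of Ctsh was 0.91 with the epithelial mean, 0.89 with the macrophage mean, 0.81 with the endothelial mean and 0.80 with the alveolar type II mean. The part of these cells in the lower cathepsin signals was not tested.

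**Figure D3:**
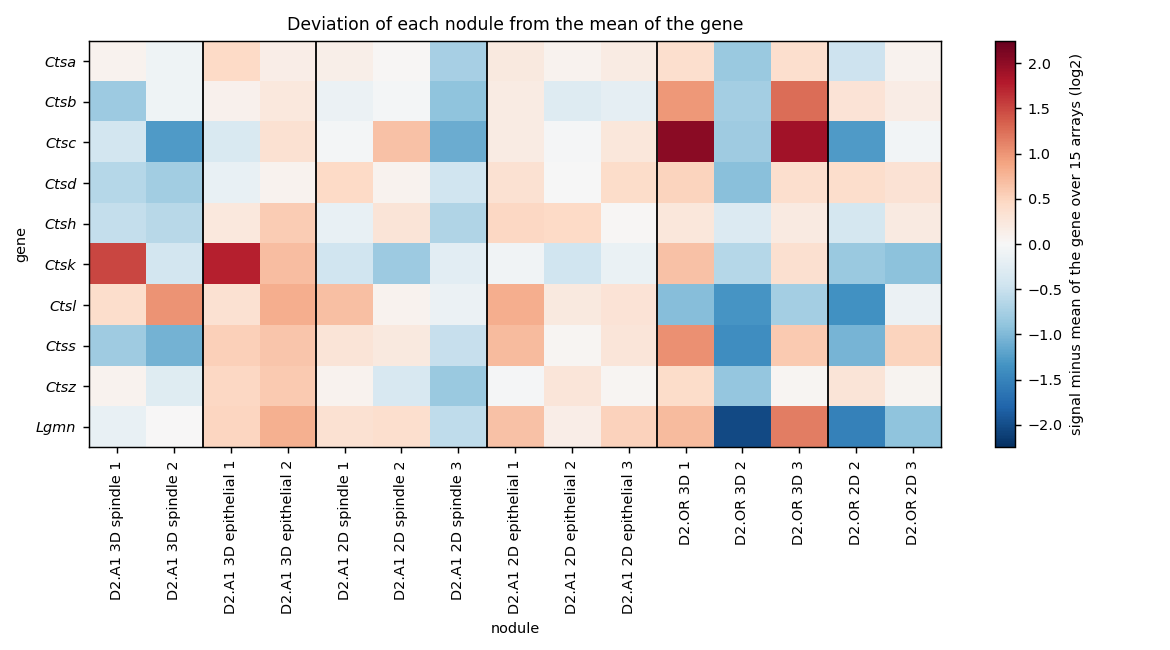
Signal of each gene in each nodule minus the mean of that gene over 15 arrays (log2), with red above and blue below the mean, D2.A1 nodules left of D2.OR nodules and black lines between groups. D2.OR 3D nodule 2 is blue in all 10 rows, D2.OR 3D nodules 1 and 3 are darkest in Ctsc, and the Ctsl row is blue in all 5 D2.OR nodules.

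Most members varied together from nodule to nodule, and Ctsl and Ctsk less so. Over the 15 arrays the median correlation of a member with the other 9 was 0.74 for Ctss, 0.65 for Ctsc and 0.64 for Ctsa, against 0.19 for Ctsl and 0.25 for Ctsk. The correlation of Ctsl with Ctsb was -0.23 and that with Lgmn, its highest, 0.53. Ctss and Ctsk are neighbors on chromosome 3, and their correlation was 0.28. The points share mice and groups, so these correlations are descriptions without a test.

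The shared pattern ran beside that of macrophage genes and, for several members as closely, that of epithelial genes or genes of other cells. The correlation with the mean of the 13 macrophage genes over 15 arrays was 0.92 for Ctsc (Spearman's rho 0.85, and 0.86 without the 2 nodules farthest from the median of that mean) and 0.88 for Ctss (rho 0.84, and 0.85 without those nodules). It was 0.74 for Ctsb and for Ctsh, 0.71 for Ctsa and for Lgmn, 0.60 for Ctsd, 0.39 for Ctsz, 0.20 for Ctsk and 0.02 for Ctsl (rho 0.02, and -0.01 without those nodules). Within the 10 D2.A1 nodules it was 0.92 for Ctss, 0.89 for Ctsh, 0.75 for Ctsc and 0.22 for Ctsl. The correlation with the mean of the 5 epithelial genes over 15 arrays was 0.81 for Lgmn (rho 0.87), 0.80 for Ctsc (rho 0.85), 0.71 for Ctsh, 0.68 for Ctsa and 0.16 for Ctsl, and that of Ctsc with the 8 alveolar type II genes was 0.82. Without the 2 nodules farthest from the median of the epithelial mean it was 0.84 for Ctsh and 0.69 for Ctsz, against 0.79 and 0.49 for the macrophage mean without its own 2 farthest nodules. The correlation with the 9 fibroblast genes was 0.77 for Ctsb and 0.78 for Ctsc, and 0.23 and 0.15 without their 2 farthest nodules. With the 7 endothelial genes it was 0.53 for Ctsz, and 0.84 within D2.A1, against 0.47 there for the macrophage mean. Within D2.A1 that of Ctsd was 0.90 with the alveolar type II genes and 0.85 with the macrophage genes. The macrophage list itself had no common direction between the lines. Mertk (0.36, adjusted p = 0.0261) and Cd14 (0.40, adjusted p = 0.0378) rose and Lyz2 fell (-1.48, adjusted p = 0.00685) in D2.A1 relative to D2.OR, and the other 10 genes did not pass. Csf1r lay at 3.02 to 3.99 in D2.A1 and 3.23 to 4.79 in D2.OR and Adgre1 at 1.76 to 2.10 and 1.58 to 3.17, both with a higher median in D2.OR. The medians of C1qa, C1qb and C1qc went the other way, at 5.88, 4.34 and 5.15 in D2.A1 against 5.11, 3.56 and 4.89 in D2.OR. Between primed nodules Adgre1 fell (-1.06, adjusted p = 0.0359 from limma).

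**Figure D4:**
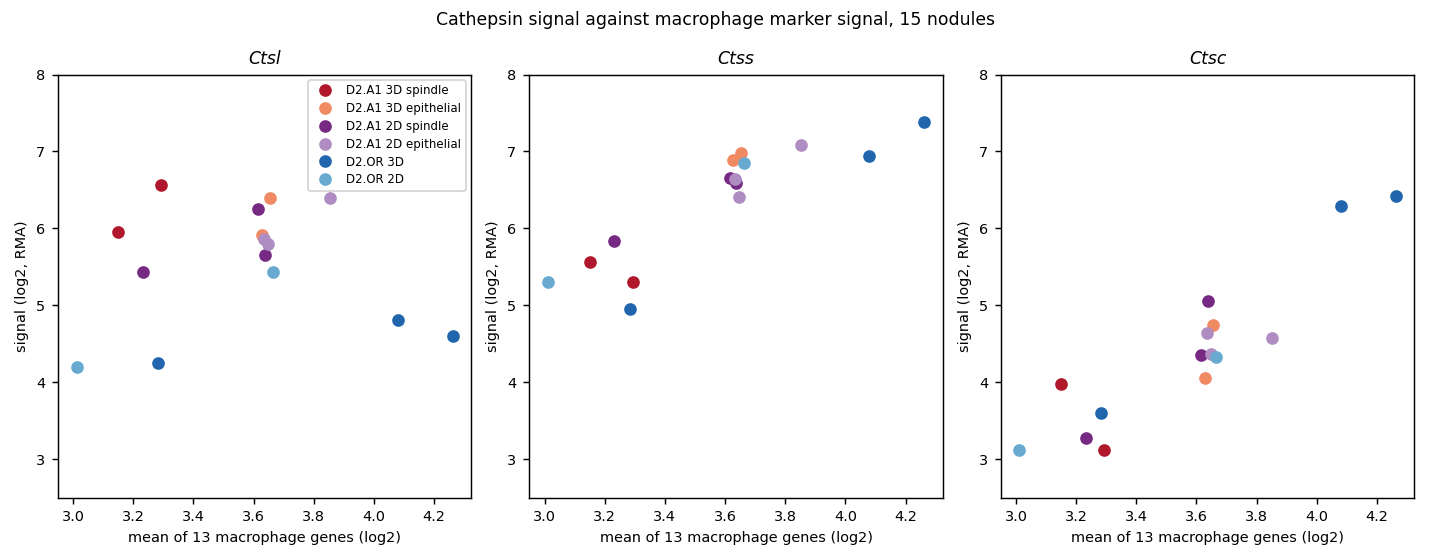
Signal (log2, RMA) of Ctsl, Ctss and Ctsc on the vertical axis against the mean of 13 macrophage genes (log2) on the horizontal axis, with 1 point per nodule colored by group. Ctss and Ctsc climb with the macrophage mean (correlations 0.88 and 0.92), whereas Ctsl does not (correlation 0.02) and lies higher in D2.A1 than in D2.OR. The macrophage mean spans 3.15 to 3.85 in D2.A1 and 3.01 to 4.26 in D2.OR, so the ranges match only in part. The part of macrophages in the Ctsl difference was not tested.

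The rest of the lysosome was read from 9 lists of genes chosen by function. In all D2.A1 against all D2.OR nodules no gene of these lists rose. Of all genes 1.52% were called higher and 3.67% lower there, and the counts below are to be read beside these shares. Among 9 MHC class II and antigen processing genes 8 fell, with a median of -0.99 over the list. At least 6 passed whichever nodule was left out. H2-Ab1, a class II chain, lay at 4.43 to 6.68 in D2.A1 and 6.27 to 8.02 in D2.OR and fell by 1.52 (adjusted p = 0.00858). Ifi30, a lysosomal thiol reductase that opens disulfide bonds of antigens, fell by 1.52 (adjusted p = 0.0114), H2-Eb1 fell by 1.31 (adjusted p = 0.00368), and H2-Aa fell by 1.18 (adjusted p = 0.000748). B cell genes moved with them, and their mean was 1.83 to 2.12 in D2.A1 and 2.94 to 4.80 in D2.OR. Their part in the class II difference was not tested.

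Other proteases and inhibitors changed in few members. Of 11 further lysosomal peptidases 1 fell, with a median of -0.31 over the list. It was Napsa, an aspartic protease of alveolar type II cells, which lay at 2.13 to 3.46 in D2.A1 and 3.21 to 4.35 in D2.OR and fell by 0.94 (adjusted p = 0.00123). Of 7 cystatins and stefins, the inhibitors of cysteine cathepsins, 1 fell. It was Cst7, cystatin F, which is made in immune cells and blocks cathepsin C, and it lay at 1.82 to 2.54 in D2.A1 and 2.33 to 3.49 in D2.OR (difference -0.97, adjusted p = 0.00528). Of 10 granule proteases that cathepsin C activates, 0 passed in limma in either direction.

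Among 25 measured lysosomal hydrolases of sugars, lipids and phosphates, of 30 listed, 2 fell, with a median of -0.21. Over all genes 3.67% were called lower. Acp5, the tartrate-resistant phosphatase of osteoclasts and macrophages, lay at 2.07 to 2.77 in D2.A1 and 2.98 to 5.20 in D2.OR and fell by 1.69 (adjusted p = 0.000104). Gm2a, the activator of ganglioside breakdown, fell by 0.87 (adjusted p = 0.0463). Of 16 lysosomal membrane proteins 1 fell, Laptm5 of blood cells, by 1.32 (adjusted p = 0.00529), with a median of -0.17 over the list. Of 15 measured vacuolar ATPase subunits, which acidify the lysosome, 2 fell, Atp6v0b by 0.64 (adjusted p = 0.0161) and Atp6v1c1 by 0.59 (adjusted p = 0.0464).

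Of 9 genes of mannose 6-phosphate and sortilin sorting 1 fell, Gga2, an adaptor that loads the receptors into vesicles, which lay at 2.77 to 3.25 in D2.A1 and 3.25 to 4.21 in D2.OR (difference -0.82, adjusted p = 0.00147), and all 9 were below 0, with a median of -0.40 beside 0.02 over all genes. Of the 4 MiT/TFE transcription factors 1 fell, Tfeb, by 0.30 (adjusted p = 0.0269), at signals of 1.72 to 2.13 in D2.A1 and 1.92 to 2.45 in D2.OR. These are weak signals, near the array medians of 1.81 to 1.91. The call was not stable, with 0 to 1 genes of this list called over the alternatives and over single nodules left out. Between primed nodules the list genes that passed were Napsa (difference -1.53, adjusted p = 0.00231), H2-Aa (-1.07, adjusted p = 0.0439) and Tfeb (-0.52, adjusted p = 0.0359), and all 3 fell. Between unprimed nodules 5 of the 9 MHC class II genes fell, as did Acp5 (difference -2.39, adjusted p = 0.000208), Laptm5 (-1.61, adjusted p = 0.0173), Ctse, the cathepsin of immune and stomach cells (-1.52, adjusted p = 0.0489), Cst7 (-1.21, adjusted p = 0.0149) and Gga2 (-0.95, adjusted p = 0.00697). In all D2.A1 against all D2.OR nodules without D2.OR 3D nodule 2 the genes called were 9 hydrolases, 5 sorting genes and 4 further peptidases, so these counts rest partly on that nodule. Of all 22180 genes 1747 were called in that setting.

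**Figure D5:**
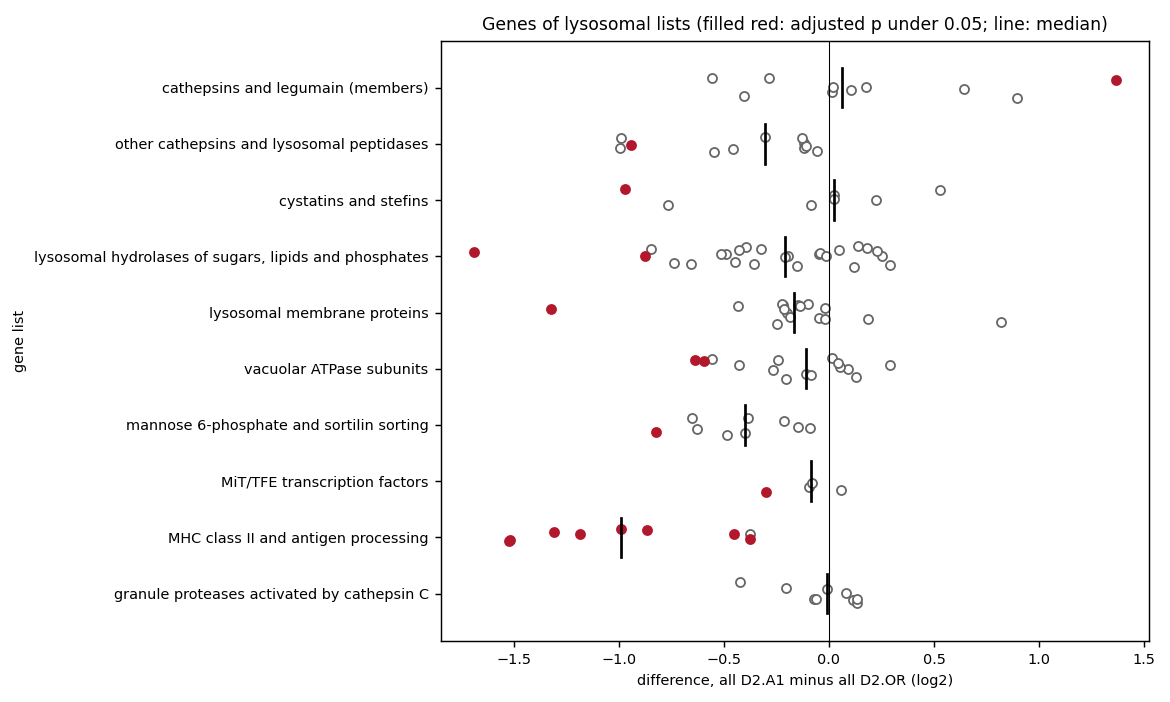
Difference of all D2.A1 minus all D2.OR nodules (log2) for each measured gene of the cathepsins and legumain and of 9 lists of lysosomal and antigen processing genes, with 1 point per gene, a bar at the list median and red where the adjusted p over all genes was under 0.05. The red point right of 0 is Ctsl at 1.37, and all other red points lie left of 0, 8 of them in the MHC class II list.

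The genes whose signal followed Ctsl most closely over the 15 arrays, by Pearson's correlation, were Slc20a1, a phosphate transporter (0.92), Nsmce2, a SUMO ligase of DNA repair (0.91), and Igfbp4, a binding protein of insulin-like growth factors (0.89). Slc20a1 lay at 4.33 to 5.59 in D2.A1 and 2.83 to 3.69 in D2.OR, Nsmce2 at 3.86 to 4.87 and 2.00 to 2.77, and Igfbp4 at 6.42 to 8.40 and 6.01 to 6.96. Their differences between the lines were 1.69, 1.98 and 1.29, a description only, since they were picked for following a gene that separates the lines on the same arrays, and Igfbp4 overlapped between the lines. For the other members the closest genes were Lgals3bp for Ctsa (0.94) and for Ctss (0.90), Cd164 for Ctsb (0.94), Atp11a for Ctsc (0.95), Rhoa for Ctsd (0.91), Tgfbi for Ctsh (0.93), Islr for Ctsk (0.87), Septin9 for Ctsz (0.91) and Itgb5 for Lgmn (0.94).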

How the data were processed

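Total RNA of 15 laser-captured lung nodules was hybridized to Affymetrix Mouse Gene 2.0 ST arrays. The deposited values are log2 signals that the authors obtained by RMA (Robust Multi-array Average), 1 for each transcript cluster in each nodule. The table names no log base, and log2 follows from RMA. Because RMA equalizes the arrays, a shift common to most genes cannot be seen, and small differences between weak signals are compressed. The submitters' processing notes name RMA, Affymetrix Expression Console and Transcriptome Analysis Console, without versions. The platform annotation gives 23521 of 41345 clusters a single gene symbol, and the cluster with the highest mean stood for each of 22180 genes. Signals of different probes are not comparable as RNA levels.

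Group means (6 groups taken from the sample titles) were fitted over all 15 arrays in limma (version 3.58.1, R 4.3.3), with Benjamini-Hochberg adjustment over all genes in each comparison. The fit was tested on simulated data. The genes, the lists and the comparisons were chosen with earlier results of these data known. Named genes were the 10 members, up to 4 genes past the threshold per pathway list and the 3 genes most correlated with a member. Marker genes named beside them were chosen after their values were seen. Alternatives were all transcript clusters, genes above the median gene, a trended robust prior, array weights, a fit of the compared groups alone, a block for the replicate number, nodules of one number averaged, quantile normalization, cyclic loess, a one-way test with adjusted p, each nodule left out, and, chosen after seeing the data, both nodules with low member signals left out. The study instead called genes by an ANOVA p under 0.05 with at least a 2-fold difference, and names no adjustment. All 15 nodules entered the reported values.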

Additional observations from a re-analysis of the deposited data

How the results depend on the processing

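Over all D2.A1 against all D2.OR nodules Ctsl passed in all 10 alternatives (1.32 to 1.48, adjusted p 0.00085 to 0.038, replicate block 1.38 with adjusted p = 0.0121) and on leaving out each nodule (1.06 to 1.67). Members called were 1 in 9 of these alternatives, 3 with both low nodules left out (D2.OR 3D nodule 2 and D2.A1 2D spindle nodule 3, chosen after seeing the data), and 1 to 3 on leaving out single nodules.

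In D2.A1 3D against D2.OR 3D nodules Ctsl lost its call with all transcript clusters (1.66, adjusted p = 0.0591), the trended robust prior (1.66, 0.0557), only the groups compared (1.66, 0.0569), the replicate block (1.70, 0.091), nodules of one number averaged (1.66, 0.235) and the one-way test (1.66, 0.309), each leaving 0 members called. Members called were 3 with array weights (Ctsl, Ctsb and Ctsc), 4 with both low nodules left out, and 0 to 3 on leaving out single nodules, where Ctsl was 1.502 to 1.81 and was lost without D2.A1 2D spindle nodule 2, D2.A1 2D epithelial nodule 2 or 3, any D2.A1 3D nodule, or D2.OR 3D nodule 1 or 3. In D2.A1 2D against D2.OR 2D nodules 1 member was called with only the groups compared (Lgmn), with quantile normalization or cyclic loess (Ctsl), and with both low nodules left out (Lgmn), and 0 to 1 on leaving out single nodules. In D2.OR 3D against D2.OR 2D nodules, and in the difference of priming between the lines, 2 members were called with both low nodules left out (Ctsc and Lgmn), and 0 to 2 on leaving out single nodules. The cause of these changes was not tested. None of the single-gene differences recomputed changed sign.

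Genes called over all genes moved too. In the contrast of the lines they were 1152, against 421 in the one-way test and 1747 without D2.OR 3D nodule 2. In D2.A1 2D against D2.OR 2D nodules they were 931, against 240 in the one-way test and 396 with nodules of one number averaged. In D2.A1 3D against D2.OR 3D nodules they were 99, against 0 in the one-way test, 55 with the replicate block and 952 with array weights. In D2.OR 3D against D2.OR 2D nodules they were 61, against 0 with only the groups compared, 17 with the replicate block and 540 with both low nodules left out. In the difference of priming they were 21, against 3 with nodules of one number averaged, 10 with the replicate block and 344 with both low nodules left out. Without D2.OR 3D nodule 2 the median difference of the 10 members was -0.48 in D2.A1 3D against D2.OR 3D nodules, where it was 0.02 with all nodules and so changed sign, and 0.72 in D2.OR 3D against D2.OR 2D nodules, where it was 0.20. With both low nodules left out the median in the difference of priming was -0.65. Of the pathway lists in the contrast of the lines, MHC class II genes called were 4 to 8 over the alternatives and single nodules left out, hydrolases 1 to 9, further peptidases 0 to 5 and sorting genes 1 to 5. Nodules with one number did not deviate together (median correlation of deviations -0.01 over 31 pairs, and lowest -0.45). These pairs also join nodules of different lines and cultures, so the check cannot tell whether the number pairs nodules of one mouse. Weak signals and the number of arrays limit what can be seen.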
